A study of Mus musculus with 6 samples.

Results

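Entry into and exit from meiotic M phase depend on the state of maturation-promoting factor, the kinase Cdk1 bound to a B-type cyclin. The 10 genes described here encode that kinase, its cyclins (Ccnb1, Ccnb2, Ccnb3), the Cdc25 phosphatases that activate it (Cdc25a, Cdc25b, Cdc25c) and the kinases that inhibit it (Wee1, Wee2, Pkmyt1). They were taken by symbol from the 24254 gene rows of the deposited table, and all 10 were found. The samples were 6 RNA-seq libraries of mouse oocytes at metaphase II, the stage at which the egg waits for fertilization. Oocytes of 3 libraries had matured in culture (in vitro, IVM), and those of the other 3 had matured inside the animal (in vivo, IVO). No source used here gives the strain, the age of the animals, hormone treatment, culture medium or the number of oocytes per library. The series title puts the question as how maturation outside the body alters metabolism and gene expression of the oocyte.

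As background, the prophase oocyte is held in arrest by inhibitory phosphorylation of Cdk1. Wee2, also called Wee1B, is the oocyte form of the Wee kinases, and Pkmyt1 is a membrane-bound relative. Cdc25b removes the phosphates and is needed in the mouse for meiosis to resume. Transcription is largely silent in the fully grown oocyte, so stored messages are polyadenylated, translated or degraded as maturation proceeds. Cyclin B1 is a classic example of a message whose translation is switched on in this way, through cytoplasmic polyadenylation elements (CPEs) near the end of the 3′ untranslated region (UTR).

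The 3′ ends of 6 of these messages are shown because that control acts there. Sequences are the RNA-sense strand of the principal GENCODE M21 transcript (GRCm38). Capitals mark the CPE letters (TTTTAT, with TTTTAAT also searched) and the polyadenylation hexamers (AATAAA, with ATTAAA also searched). The longer CPE spelling can share bases with the first hexamer, and the opposite strand was not searched because these signals are read in the RNA.
Wee2: tcattgtaAATAAAgaTTTTATcttatcca
Ccnb3: tcttgaaattacTTTTATgaaagaagagaa
Ccnb1: ctttatgttgctAATAAAcatagttttcga
Cdc25b: gggccttggttcAATAAAgcactgagcaag
Wee1: attgtctggtgtATTAAAagtcattccgtg
Pkmyt1: acttccgtgtctAATAAAaagtaatgcgtc
In genome order these stretches lie at chr2:131198463-131198492 (Cdc25b, plus strand), chr6:40466780-40466809 (Wee2, plus), chr7:110143247-110143276 (Wee1, plus), chr13:100778656-100778685 (Ccnb1, minus), chr17:23736671-23736700 (Pkmyt1, plus) and chrX:6979702-6979731 (Ccnb3, minus). In the last 100 bases of its UTR, Wee2 held 2 such elements, which began 46 and 18 bases before the end of the transcript. Only the element at 18 lies in the stretch shown. Ccnb3 held 1, which began 68 bases before the end, and its hexamer lies outside the stretch shown. The other 8 genes had neither spelling in that window, while every member had at least 1 hexamer there. For Ccnb1, however, the stretch shown lies beyond the 3′ end of the deposited position (chr13:100778737-100786486). The same holds for Cdk1, so their windows belong to longer transcripts than those deposited positions span. Whether a CPE lies near the end of the shorter Ccnb1 or Cdk1 message was not searched. Of 19348 protein-coding genes with a UTR of that length, 17.9% held a CPE spelling in the same window and 78.6% a hexamer. A match describes letters only, and other spellings and more distant sites were not searched.

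Levels are given as FPKM, a fragment density corrected for transcript length and library size. Comparisons between genes are approximate here, since 53 of 80 ribosomal protein genes had a mean under 1 FPKM. Summed FPKM was 353438 to 364983 in the IVM libraries and 394233 to 402054 in the IVO libraries. Read totals are unknown, but relative to IVM replicate 1 the spacing of low values gave depths of 0.779 to 0.908. Of 13 oocyte markers 12 had a mean of at least 1 FPKM, and their sum was 12446 to 12765 in IVM and 8323 to 9736 in IVO. Of those 12 markers 9 were higher in IVM and none lower, against 20.6% higher and 20.4% lower over all tested genes. Their median log2 difference was 1.22, while Zar1, Oosp1 and Ddx4 overlapped between the groups and did not pass. Figla, below the level for testing, was listed at 0 in each IVO library. Zp2 was under 1 FPKM in every IVO library and reached the level for testing through IVM, so its place among the 9 says little. Somatic cells that surround the oocyte were read through 19 cumulus and granulosa markers, which summed to 36.0 to 91.8 FPKM in IVM and 37.6 to 78.8 in IVO. Of these, 8 had a mean under 1, and among the 11 tested 2 were higher in IVM and 3 lower. Those counts lie near the share over all tested genes. Inha (16.9 ± 9.39 FPKM against 3.90 ± 2.84) and Kitl (6.19 ± 0.792 against 3.92 ± 0.46) were higher. Inhba (0.248 ± 0.221 against 2.18 ± 1.39), Tnfaip6 (0.242 ± 0.419 against 2.76 ± 2.07) and Sdc4 (0.33 ± 0.214 against 1.80 ± 0.817) were lower (IVM against IVO, SD, n = 3). These 3 were under 1 FPKM in every IVM library. They reached the level for testing through IVO, so their place in the count of lower markers says little. The 6 blood and immune markers summed to at most 3.05 in any library. The part of oocyte or somatic marker levels in the differences below was not tested. In bulk libraries fewer cells of a type and less RNA per cell cannot be told apart.

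Cdc25b was the member with the largest difference, and it was much higher after maturation in culture. Ccnb1, Ccnb3 and Wee1 were also higher in IVM, and Pkmyt1 was lower. The call of Ccnb1 was lost in 9 of 18 alternative fits and that of Wee1 in 4 of 17. Differences were tested with limma on log2(FPKM + 1) over all 7746 genes with a mean of at least 1 FPKM, two-sided, with Benjamini-Hochberg adjusted p under 0.05. Of the 8 members that reached this level, 4 were higher in IVM, 1 was lower and 3 did not pass. Over all tested genes 20.6% were higher and 20.4% lower, 41.0% in all. The split of 1595 higher and 1583 lower moved with scaling, to 1949 and 1167 at equal summed FPKM and to 1354 and 2063 under upper quartile scaling. Among the tested members the groups did not overlap for 6 of 8, against 53.5% of all tested genes. The median log2 difference (IVM minus IVO) was 0.27 for the 8 members and -0.02 for all tested genes. Cdk1 and Cdc25c were below the level for testing. In the authors' deposited table the q-value was under 0.05 for 4 of the other 8 members (Ccnb3, Cdc25b, Wee1 and Pkmyt1). That share was 44.2% of the 8339 genes with a p-value under 1, which leave out Cdk1 and Cdc25c. Ccnb3 was under 1 FPKM in every IVO library and reached the level for testing through IVM. Its place in each of these member counts, among them the 4 higher and the 6 without overlap, and in the median therefore says little.

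**Figure D1:**
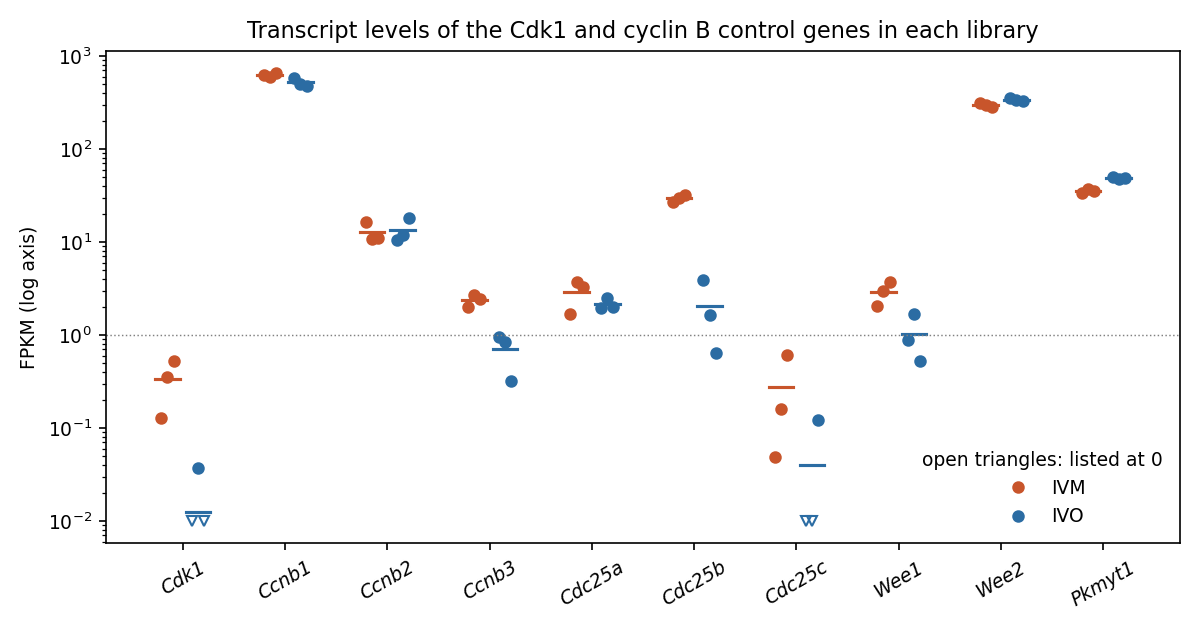
FPKM of each of the 10 genes in each library on a log axis, with IVM in orange, IVO in blue and a bar at each group mean. Open triangles mark values listed at 0, and the dotted line marks 1 FPKM. Ccnb1 and Wee2 lie at the top in every library, while Cdc25b lies at 27.1 to 32.1 in IVM and at 0.635 to 3.86 in IVO.

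Cdk1, the catalytic subunit (chromosome 10, 69336633 to 69352912), was barely detected. It was listed at 0.127, 0.349 and 0.519 FPKM in IVM replicates 1, 2 and 3 and at 0, 0.0375 and 0 in IVO replicates 1, 2 and 3. Each IVM value was above each IVO value, and all were far below the level of its main cyclin. When genes of any level were tested, its log2 difference was 0.38 (SE 0.11, limma with Benjamini-Hochberg adjusted p = 0.0559). A low listing cannot be read as absence of the message in this table. Of 80 ribosomal protein genes, 53 had a mean under 1 FPKM, as did 6 of the 14 genes of the proteasome core.

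Ccnb1, the main mitotic and meiotic cyclin B (chromosome 13, 100778737 to 100786486), was the most abundant member. Its FPKM was 625, 589.9 and 652 in IVM and 582, 499.6 and 475 in IVO. The groups did not overlap, though IVM replicate 2 and IVO replicate 1 lay close together. In each library Ccnb1 stood among the most abundant messages, at rank 62 to 72 of all genes in IVM and 82 to 107 in IVO. The difference was small, 622 ± 31.2 against 519 ± 56.3 FPKM (SD, n = 3), a log2 difference of 0.27 (SE 0.09, limma with Benjamini-Hochberg adjusted p = 0.0392). That call was lost without IVM replicate 1, 2 or 3 or IVO replicate 2 or 3, with adjusted p of 0.0626 to 0.125, and under upper quartile scaling (adjusted p = 0.303). In the authors' deposited table the q-value of Ccnb1 was 0.0556.

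Ccnb2, a cyclin B that can stand in for Ccnb1 in mouse oocytes (chromosome 9, 70407687 to 70421554), did not separate the groups. Its FPKM was 16.2, 10.7 and 11.0 in IVM and 10.6, 11.8 and 17.9 in IVO. IVM replicate 1 and IVO replicate 3 were the high libraries, and the others lay within 10.6 to 11.8. The log2 difference was -0.07 with a 95% interval of -0.57 to 0.43 (limma with Benjamini-Hochberg adjusted p = 0.823). Its sign changed in some alternatives. Ccnb3, a cyclin needed for the first meiotic anaphase in mouse oocytes (chromosome X, 6979650 to 7041619), was low but separated the groups. Its FPKM was 2.01, 2.67 and 2.43 in IVM and 0.943, 0.845 and 0.315 in IVO. The log2 difference was 1.00 (SE 0.22, limma with Benjamini-Hochberg adjusted p = 0.00637). Since Ccnb3 reached the level for testing through IVM, that p-value says little. Ccnb1 supplied 96.3% to 98.1% of summed cyclin B FPKM over the 6 libraries, and Ccnb3 at most 0.443%.

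Of the Cdc25 genes, Cdc25b was higher in IVM, while Cdc25a and Cdc25c did not pass. Cdc25b, the phosphatase of meiotic resumption, was at 27.1, 29.4 and 32.1 FPKM in IVM and at 3.86, 1.62 and 0.635 in IVO. The IVM libraries were close together, while the IVO libraries spread widely below them. The mean was 29.5 ± 2.52 in IVM and 2.04 ± 1.65 in IVO (SD, n = 3), a ratio of 14.5. On the log2 scale the difference was 3.47 (SE 0.34, 95% interval 2.71 to 4.23, limma with Benjamini-Hochberg adjusted p = 0.000107). Among the 7746 tested genes 40 (0.516%) were called higher with a log2 difference of at least 3, and 18 (0.232%), Cdc25b included, had a difference at least as large as that of Cdc25b. The call held in 18 of 18 alternatives, with log2 differences of 3.09 to 4.21. In the authors' deposited table its p-value was 0.0181 and its q-value 0.0422. The position the file gives for Cdc25b (chromosome 2, 131127410 to 131604824) covers 13 gene rows, so it is a span of neighbouring genes. Of others in that span, Rnf24 ranged from 27.1 to 27.9 FPKM in IVM and from 9.42 to 12.5 in IVO. Cenpb, also higher in IVM, ranged from 2.14 to 5.10 and from 0.344 to 0.436. Pank2 was lower in IVM, at 33.4 to 39.8 against 44.6 to 50.7, and Mavs at 11.5 to 12.9 against 16.6 to 22.3. None of these overlapped between the groups. Without overlap, 1700037H04Rik was also lower in IVM, and Spef1, at most 0.287 FPKM, higher. Smox (5.98 to 7.58 in IVM, 6.01 to 9.32 in IVO) and Ap5s1 (0.541 to 1.74 and 0.450 to 1.27) overlapped. The rest of the span was listed at no more than 0.085 FPKM. Over all tested genes the groups did not overlap for 53.5%. The neighbours named were picked after their values were seen.

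Cdc25a, a phosphatase best known from the mitotic cell cycle (chromosome 9, 109875577 to 109893890), gave 1.67, 3.66 and 3.30 FPKM in IVM and 1.95, 2.49 and 1.97 in IVO. IVM replicate 1 was the lowest of all and the groups overlapped. The log2 difference was 0.27 with a 95% interval of -0.28 to 0.82 (limma with Benjamini-Hochberg adjusted p = 0.411). Cdc25c, whose loss mice tolerate (chromosome 18, 34732993 to 34751533), was at 0.0483, 0.16 and 0.608 in IVM and listed at 0, 0 and 0.121 in IVO. Its groups overlapped, and when genes of any level were tested it did not pass (limma with Benjamini-Hochberg adjusted p = 0.313). The make-up of the family therefore differed between the groups. Cdc25b supplied 94.0%, 88.5% and 89.1% of summed Cdc25 FPKM in IVM and 66.4%, 39.3% and 23.3% in IVO. In IVO replicates 2 and 3 the larger share was that of Cdc25a.

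**Figure D2:**
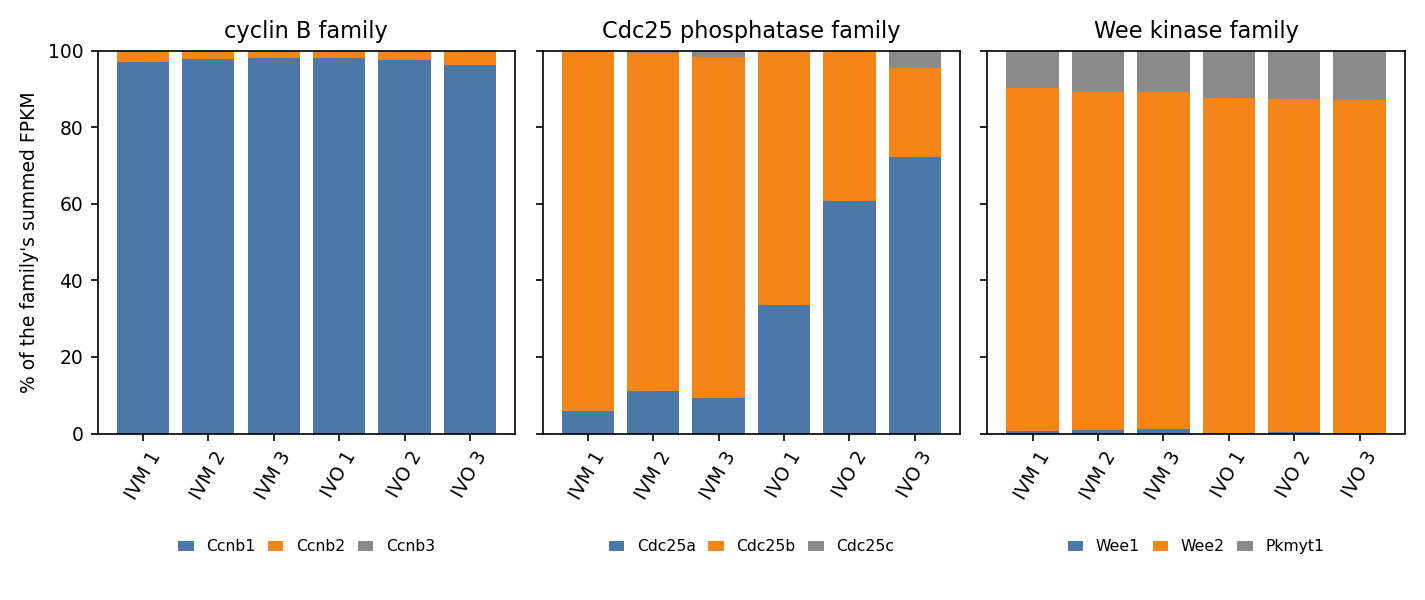
Share of each gene in the summed FPKM of its family, in percent, for each library. Ccnb1 and Wee2 make up most of their families in all 6 libraries, while the share of Cdc25b is 88.5% to 94.0% in IVM and 23.3% to 66.4% in IVO.

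Among the inhibitory kinases Wee2 was the most abundant. Wee2 (chromosome 6, 40442861 to 40466815) gave 315, 297 and 283 FPKM in IVM and 354, 331 and 329 in IVO. Each IVM library was below each IVO library, by a narrow margin between IVM replicate 1 and IVO replicate 3. The difference, -0.18 on the log2 scale (SE 0.07), did not pass (limma with Benjamini-Hochberg adjusted p = 0.0758). It passed under upper quartile scaling, at -0.31 (adjusted p = 0.0205), and was -0.02 under quantile normalization (adjusted p = 0.818). Pkmyt1, which phosphorylates Cdk1 at membranes (chromosome 17, 23726334 to 23740330), gave 33.8, 36.7 and 34.9 FPKM in IVM and 49.9, 47.8 and 48.3 in IVO. Both groups were tight and well apart. It fell by 0.46 on the log2 scale (SE 0.09, limma with Benjamini-Hochberg adjusted p = 0.00396), a ratio of IVM to IVO means of 0.722. This call held in 18 of 18 alternatives, with log2 differences of -0.59 to -0.32. The position given for Pkmyt1 also covers the row of Paqr4, which stood at 2.44 to 3.37 FPKM in IVM and 0.933 to 1.34 in IVO.

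Wee1, the Wee kinase of somatic cells (chromosome 7, 110122057 to 110143299), gave 2.07, 2.96 and 3.69 FPKM in IVM and 0.873, 1.67 and 0.526 in IVO. The groups did not overlap, but IVM replicate 1 and IVO replicate 2 were near each other. It rose by a log2 difference of 0.97 (SE 0.26, limma with Benjamini-Hochberg adjusted p = 0.017). Without IVM replicate 2 the adjusted p was 0.0557, and without IVM replicate 3 it was 0.07. Wee1 made up at most 1.15% of summed Wee family FPKM. Wee2 made up 88.0% to 89.8% in IVM and 87.0% to 87.4% in IVO, and Pkmyt1 9.65% to 10.9% and 12.3% to 12.8%.

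**Figure D3:**
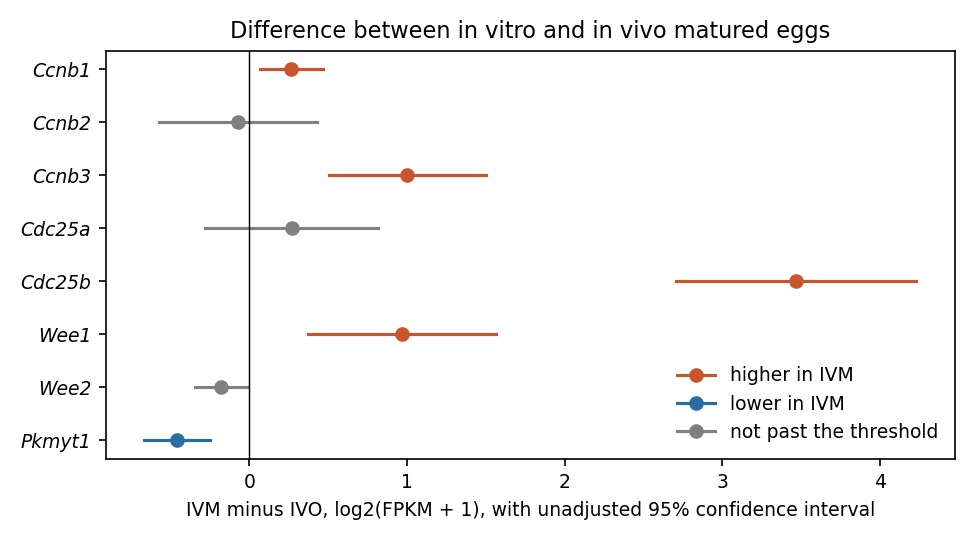
Log2 difference (IVM minus IVO, on the log2(FPKM + 1) scale) of the 8 genes tested, with unadjusted 95% intervals. Orange points passed as higher in IVM, the blue point as lower, and grey points did not pass. Cdc25b stands far to the right at 3.47, and the other 7 lie between -0.46 and 1.00.

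The ratio of message between the opposing families restates the difference in Cdc25b, since Cdc25a and Cdc25c overlapped between the groups and Wee2, most of the Wee sum, did not pass. Summed Wee family FPKM was 350.4, 337 and 321 in IVM and 405, 381 and 378 in IVO. Summed Cdc25 FPKM was 28.8, 33.2 and 36.0 in IVM and 5.81, 4.11 and 2.73 in IVO. The ratio of Wee to Cdc25 message was 12.2, 10.2 and 8.92 in IVM and 69.7, 92.6 and 139 in IVO, without overlap. The ratio of Ccnb1 to summed Wee message was 1.78, 1.75 and 2.03 in IVM and 1.44, 1.31 and 1.26 in IVO. Being sums and ratios over chosen genes, these were not tested, and message ratios are not protein ratios.

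In order of mean level IVM had Ccnb1, Wee2, Pkmyt1, Cdc25b, Ccnb2, Wee1, Cdc25a, Ccnb3, Cdk1 and Cdc25c. Ranges over libraries overlapped between Wee1 and Cdc25a, between Cdc25a and Ccnb3, and between Cdk1 and Cdc25c. In IVO the order was Ccnb1, Wee2, Pkmyt1, Ccnb2, Cdc25a, Cdc25b, Wee1, Ccnb3, Cdc25c and Cdk1. Neighbours from Cdc25a to Ccnb3 overlapped there, as did Cdc25c and Cdk1. Cdc25b thus stood above Ccnb2 in IVM and below it in IVO, with no overlap between those 2 genes in either group. IVM replicate 1 had the lowest value of its group for 7 of the 10 members and the highest for 2. IVO replicate 3 had the lowest for 5 and the highest for 2.

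For each tested member the gene with the most similar profile was found among genes with a mean of at least 5 FPKM. Likeness was the root mean square difference of centred log2(FPKM + 1) values over the 6 libraries. For Cdc25b it was Pebp1 (0.26), at 173.6 to 194 FPKM in IVM and 13.4 to 32.9 in IVO. For Ccnb1 it was Mfap1b (0.0478), for Ccnb2 Sycp3 (0.0605), for Ccnb3 Tmem55a (0.0906) and for Cdc25a Gng3 (0.148). For Wee1 it was Cep41 (0.0863), for Wee2 Suco (0.0248) and for Pkmyt1 Troap (0.0326). Sycp3 shared with Ccnb2 the high values in IVM replicate 1 and IVO replicate 3, at 16.7 and 21.0 FPKM.

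Another 64 genes of cell cycle control were read in 5 lists, from partners of Cdk1 to other cyclins and kinases. Of the 44 tested, 9 were higher in IVM and 11 lower, with a median log2 difference of -0.06. Over all tested genes 20.6% were higher and 20.4% lower, so these counts lie near the background. The balance turned with scaling, to 13 higher and 8 lower at equal summed FPKM and to 8 and 15 under upper quartile scaling. Among 8 partners, activators and inhibitors of Cdks 4 were tested, with none higher and 1 lower. That one was Cks1b, a small Cdk-binding subunit, at 173 ± 13.99 FPKM in the IVM group and 283 ± 19.1 in the IVO group (SD, n = 3; limma with Benjamini-Hochberg adjusted p = 0.000355). Cdk7, the kinase that activates Cdk1, was listed at no more than 0.386 FPKM in any library. Among 12 other cyclins and kinases 5 were tested, and 1 was higher. This was Ccno, cyclin O, at 253 ± 22.0 in IVM and 117 ± 13.2 in IVO (SD, n = 3; limma with Benjamini-Hochberg adjusted p = 9.5e-05).

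Of 17 kinases and adaptors that act on Cdc25 and Wee proteins 13 were tested, with 4 higher, 4 lower and 5 not past the threshold. Ywhab, an adaptor of the family that binds phosphorylated Cdc25, was at 16.7 ± 4.71 FPKM in the IVM group and 4.91 ± 1.34 in the IVO group (SD, n = 3; limma with Benjamini-Hochberg adjusted p = 0.00103). Camk2g, the kinase that acts on Wee2 at egg activation, was at 18.2 ± 0.895 and 6.57 ± 0.763 (adjusted p = 0.000129, limma). Ywhaq, of the same family as Ywhab, was at 3.78 ± 0.396 and 1.47 ± 0.452 (adjusted p = 0.00496, limma). Members of that adaptor family went both ways, since Ywhaz and Ywhae were among the 4 lower. Ywhaz was at 96.0 ± 4.69 FPKM against 179 ± 6.09, and Ywhae at 109 ± 1.76 against 150.2 ± 6.22 (IVM against IVO, SD, n = 3). The remaining lower genes were kinases, Plk1 at 32.1 ± 8.32 against 60.6 ± 2.35 and Chek1 at 133 ± 2.90 against 178 ± 17.0.

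Of 17 phosphatases and greatwall pathway genes 12 were tested, with 1 higher and 6 lower and a median log2 difference of -0.36. The number lower was 3 at equal summed FPKM and 7 under upper quartile scaling, with medians of -0.22 and -0.49. Mastl encodes the greatwall kinase, which keeps the phosphatase that opposes Cdk1 switched off through the small proteins Ensa and Arpp19. Mastl was lower in IVM, at 31.9 ± 1.81 FPKM against 58.1 ± 5.70 (limma with Benjamini-Hochberg adjusted p = 0.000371). Ppp2r2d, a regulatory subunit of that phosphatase, was at 8.58 ± 0.459 and 14.8 ± 0.967 (adjusted p = 0.0022, limma). Ensa was the 1 that was higher, at 14.3 ± 1.61 in IVM and 1.48 ± 0.979 in IVO (adjusted p = 0.000104, limma). Arpp19 was among the lower ones, at 71.4 ± 6.32 and 92.3 ± 1.89 (SD, n = 3; adjusted p = 0.0118, limma). Of 10 genes of cyclin B, Wee and Cdc25 protein turnover all were tested, with 3 higher and none lower. At equal summed FPKM 4 were higher and none lower, and under upper quartile scaling 3 were higher and 1 lower. The median log2 differences were 0.13 and -0.14. Fbxo5, an inhibitor of the anaphase-promoting complex, was at 13.8 ± 5.22 in IVM and 1.74 ± 0.806 in IVO (adjusted p = 0.000325, limma). Fzr1, an activator of that complex, was at 8.87 ± 0.477 and 1.57 ± 0.552 (adjusted p = 0.000143, limma). Skp1a, a ubiquitin ligase subunit, was at 201 ± 14.6 and 107 ± 15.1 (SD, n = 3; adjusted p = 0.000372, limma). Cdc20, the activator that drives cyclin B1 destruction, was at 219 ± 6.14 and 226 ± 28.4 and did not pass.

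**Figure D4:**
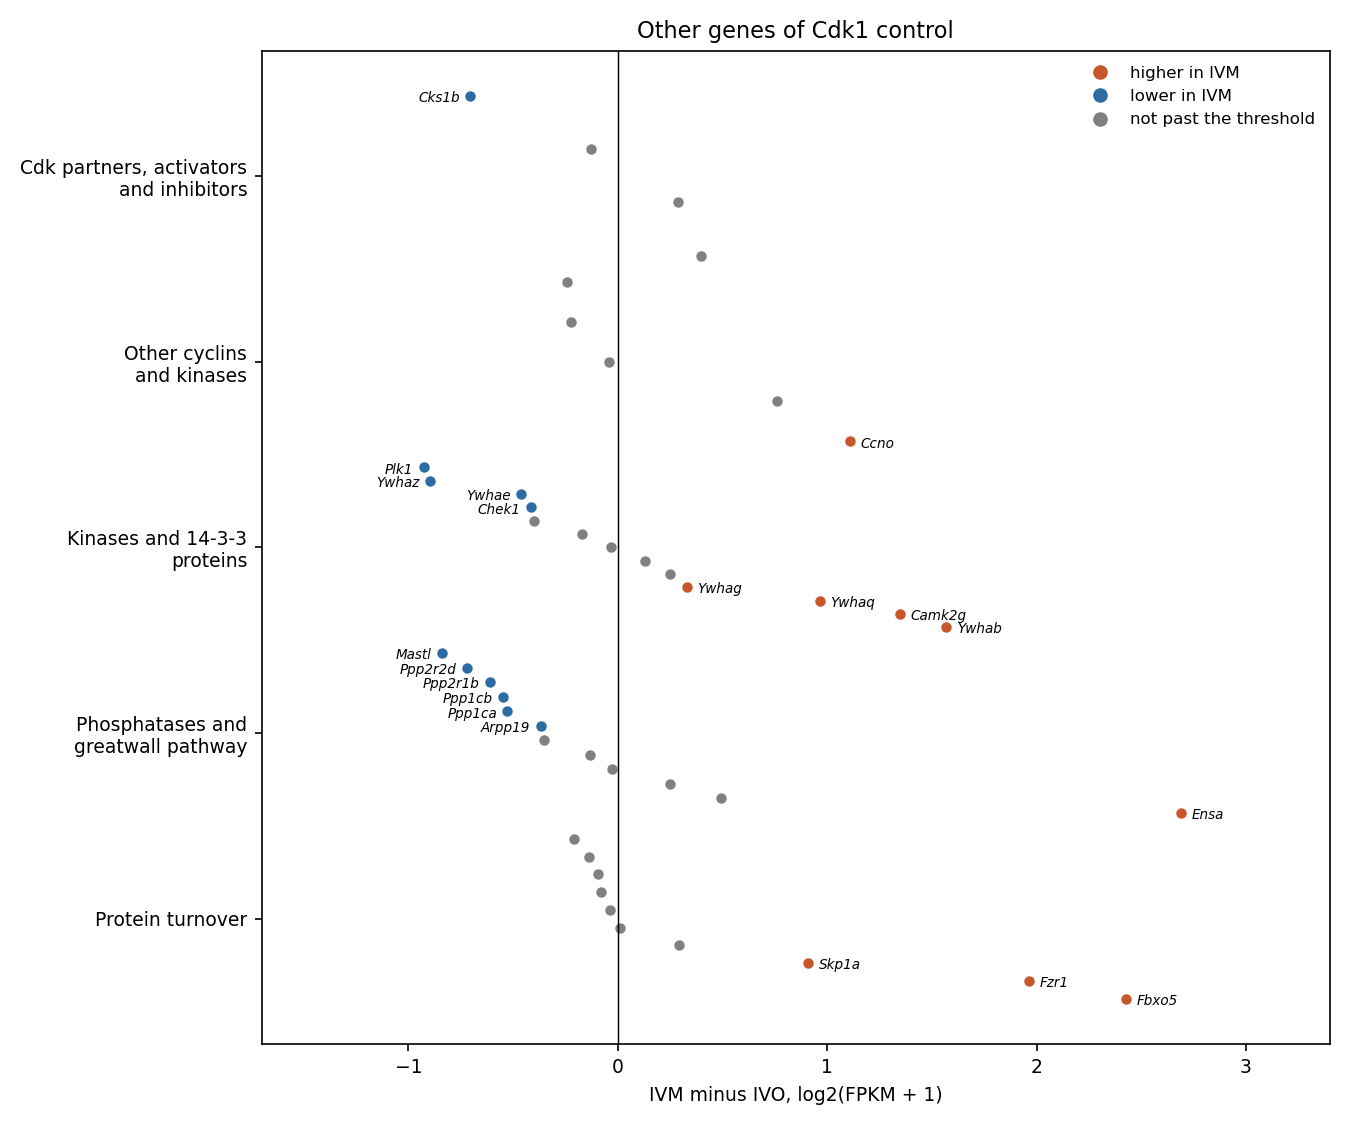
Log2 difference (IVM minus IVO, on the log2(FPKM + 1) scale) of the 44 tested genes in 5 lists of cell cycle control, 1 point a gene, with genes past the threshold named. Ensa, Fbxo5 and Fzr1 lie farthest to the right, at 2.69, 2.43 and 1.96, and 6 of the 12 phosphatase and greatwall pathway genes lie to the left as lower in IVM.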

How the data were processed

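The authors deposited FPKM per gene and library, per the file headers, with their own p-value and q-value for IVM against IVO. The aligner, the counting tool and the strandedness of the libraries are not stated in the labels or headers. The submitters' processing notes name the build mm9, but 99.8% of 19747 protein-coding symbols lay on the GRCm38 gene of that name (GENCODE M21), all 10 members included, so positions are GRCm38. The table had 24254 gene rows, 27 of them with symbols turned into dates by a spreadsheet, and 1 emptied line. Part of its log2 ratio columns had become error text, so they were not used.

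FPKM values are not counts, so no count test was run. Values as deposited, on the scale log2(FPKM + 1), were fitted by limma (version 3.58.1, under R version 4.3.3) with a trend in the prior variance, for genes whose mean over the 6 libraries was 1 FPKM or more. This scale understates the change of low genes. The procedure was also run on simulated data with independent noise, few changed genes and no shift in scaling between the groups. These data differ in that many genes were called and the counts moved with scaling, so that run does not bear on the calls here. Depth in reads is unknown, and no counting interval can be given. No label says whether libraries came from separate animals, so a p-value here reflects only how these libraries varied, possibly for technical reasons. Same-numbered libraries were not treated as pairs, since no label states a pairing. The correlations of their deviations from the group means were 0.0777, 0.0599 and 0.09, which do not settle whether they were paired. A fit with the replicate number as a block was run as an alternative.

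The members and gene lists were chosen with earlier results of these data known. Named list genes are up to 3 past the threshold with the largest difference per list. Ywhaz, Ywhae, Plk1, Chek1, Arpp19, Cdk7 and Cdc20 were added after their values were seen. Alternatives covered the pseudocount, the filter, scaling, sample weights, the variance trend, leaving out each library, a replicate block and the authors' q-values. Removal of trends with GC content and transcript length (known for 93.3% of tested genes) was added after the data were seen.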

Additional observations from a re-analysis of the deposited data

How the results depend on the processing

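The calls of Cdc25b and Pkmyt1 held in all 18 alternatives fitted, and that of Ccnb3 in the 17 in which it was tested. Ccnb3 reached the level for testing through IVM and was removed by the filter at 5 FPKM, so its count is weaker support. The call of Ccnb1 was lost in 9 of 18 alternatives and that of Wee1 in 4 of 17, none with a change of sign. The cause was not tested. The number of members higher in IVM was 4, and 2 with no filter, where more genes were tested, and 2 when the filter was raised to 5 FPKM, which left fewer members. It ranged from 2 to 4 with 1 library left out, with 2 without IVM replicate 2 and 2 without IVM replicate 3. Members lower in IVM numbered 1, and 2 under upper quartile scaling, which added Wee2. The sign of Ccnb2, never past the threshold, turned to 0.0591 when libraries were scaled to equal summed FPKM, 0.0295 without IVM replicate 2, 0.00732 without IVM replicate 3 and 0.14 without IVO replicate 3, in a range of -0.25 to 0.14 over the 6 libraries left out. Equal summed FPKM moved the median log2 difference of all tested genes by 0.12 and upper quartile scaling by -0.11. Genes higher in IVM over all tested numbered 1595, and 835 with the filter at 5 FPKM. With the replicate number as a block 1626 genes were higher and 1558 lower, and the members' calls did not change. Each library's deviations correlated best with those of its own number in the other group, a hint from the data and not the design. Low levels limit Cdk1 and Cdc25c, which were tested with no filter and did not pass there.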

Other observations

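Tested genes were counted by the CPE spellings in the last 100 bases of the 3′ UTR, where a UTR of that length was annotated. Of 1682 tested genes with such a spelling 12.5% were higher in IVM and 24.3% lower, with a median log2 difference of -0.10. Of 5296 tested genes without one 23.0% were higher and 19.98% lower, with a median of 0.01. Wee2, with 2 elements, was at -0.18, and Ccnb3, with 1, was at 1.00. Genes are not independent replicates, and no test was made of this split.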
